A study of Sus scrofa with 12 samples.

Results

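PRKAG2 and PRKAG3 encode regulatory gamma subunits of AMP-activated protein kinase (AMPK), and their mRNA was followed in back subcutaneous fat and longissimus dorsi (LD) muscle of Dingyuan pigs that differed in fatness. The 2 genes were taken by Ensembl identifier, ENSSSCG00000016432 for PRKAG2 and ENSSSCG00000016200 for PRKAG3, out of 31903 identifiers in the expression table. The samples were back fat of pigs with low (LBF) or high (HBF) backfat and LD muscle of pigs with low (LIMF) or high (HIMF) intramuscular fat, with 3 libraries in each of the 4 groups and 12 in all. All animals were unmated sows of this native Chinese breed, 300 days old by the labels, from 1 farm with the same feeding and with no treatment or genetic change. The labels do not tell which libraries came from the same pig, and each library holds whole tissue with all of its cell types. The study asked which genes act specifically on subcutaneous or on intramuscular fat deposition, by comparing the high and low groups of each tissue. Both genes are on the study's own lists of changed genes from these libraries, so the tests below are not independent evidence of a direction.

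AMPK senses the energy state of the cell. It is built from a catalytic alpha subunit (PRKAA1 or PRKAA2), a scaffolding beta subunit that also binds glycogen (PRKAB1 or PRKAB2) and a gamma subunit (PRKAG1, PRKAG2 or PRKAG3) whose CBS repeats bind AMP, ADP and ATP. When energy falls the kinase restrains lipid and glycogen synthesis and favours fatty acid oxidation and glucose uptake. PRKAG3 is known chiefly from fast, glycolytic skeletal muscle, and in pigs its coding variants are known for their effect on muscle glycogen and meat quality. PRKAG1 is found in most tissues, and PRKAG2 is known above all from the heart, where mutations disturb glycogen storage.

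In the RefSeq annotation of Sscrofa11.1, PRKAG3 is a compact gene at chr15:120859486-120866308, 6823 bp with 1 annotated transcript. PRKAG2 lies at chr18:5475077-5744761 and spans 269685 bp with 13 annotated transcripts. Since the values were summed per gene, isoforms of PRKAG2 were not told apart. PRKAG3 was also chosen by the study for RT-qPCR, and its primer pair is shown because it marks the part of the mRNA that assay reads. Both primers are given 5′ to 3′ in lower case, with no part singled out in capitals. The first has 21 bases, 11 of them G or C, and the second 20 bases, also with 11. RT-qPCR values were not analysed here.
PRKAG3-F: gttcctgcacatctttggcac
PRKAG3-R: cagtttcgttgaccacaggc

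Levels are given as FPKM, which scales fragments by transcript length and by library size and so allows genes to be set side by side per length. Fragment counts per gene were not used here, so the number of fragments behind each value is not given, nor a counting interval. The libraries summed to between 420982 and 517796 FPKM. In muscle the totals did not overlap, at 430581 to 450875 FPKM in LIMF and 496972 to 517796 FPKM in HIMF. In fat they did, at 420982 to 514247 FPKM in LBF and 469603 to 503498 FPKM in HBF. Fat libraries carried the adipocyte markers (10 of 11 matched to the table) at summed levels of 8174 to 13289 FPKM, against 98.8 to 207 FPKM in muscle. Of 17 matched general skeletal muscle markers, the 14 with no value of 0 in a muscle library summed to 11890 to 14949 FPKM in muscle and to 21.1 to 141 FPKM in fat. ACTA1, skeletal actin, was listed at 0 in LIMF1, LIMF2, LIMF3 and HIMF1, and CKM, muscle creatine kinase, at 0 in LIMF2 and LIMF3. In the other muscle libraries ACTA1 stood at 8025 and 9637 FPKM and CKM at 7172 to 9288 FPKM, so these listed zeros were not read as absence.

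PRKAG3 mRNA was a muscle transcript in these pigs. In LD muscle the 3 LIMF libraries had 16.1, 7.88 and 10.6 FPKM and the 3 HIMF libraries 31.9, 54.4 and 30.3 FPKM. In fat the LBF libraries had 0.585, 0.0776 and 0.215 FPKM and the HBF libraries 0.0285, 0.0526 and 0.0817 FPKM. Every muscle library thus stood above every fat library, as for 10.4% of all genes, and the order of the group means was HIMF, LIMF, LBF and HBF, with only the neighbours LBF and HBF overlapping. The mean over the 6 muscle libraries, 25.2 FPKM, was 145-fold that over the 6 fat libraries, 0.173 FPKM. On the log2(FPKM + 0.1) scale, which understates the change of low genes, the muscle minus fat difference was 6.49 (SE 0.31, limma with Benjamini-Hochberg adjusted p = 4.5e-09).

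PRKAG2 mRNA was present in both tissues at similar mean levels and spread very unevenly in muscle. In fat its levels were 14.1, 11.9 and 16.4 FPKM in LBF, and those of HBF were 11.03, 10.7 and 11.5 FPKM in HBF. In muscle its levels were 45.6, 10.5 and 4.72 FPKM in LIMF, and those of HIMF were 3.49, 2.45 and 4.23 FPKM. The highest muscle library was 18.6-fold the lowest, against 1.54-fold in fat. By group median the order was LBF, HBF, LIMF and HIMF, and only HIMF lay apart from all the others, since the range of LIMF covered both fat groups. The muscle minus fat difference was -0.90 on the log2 scale (SE 0.42, limma adjusted p = 0.065), with the single LIMF1 value of 45.6 FPKM in it. Without LIMF1 it was -1.35, and PRKAG2 was then called lower in muscle (limma adjusted p = 0.00017).

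**Figure D1:**
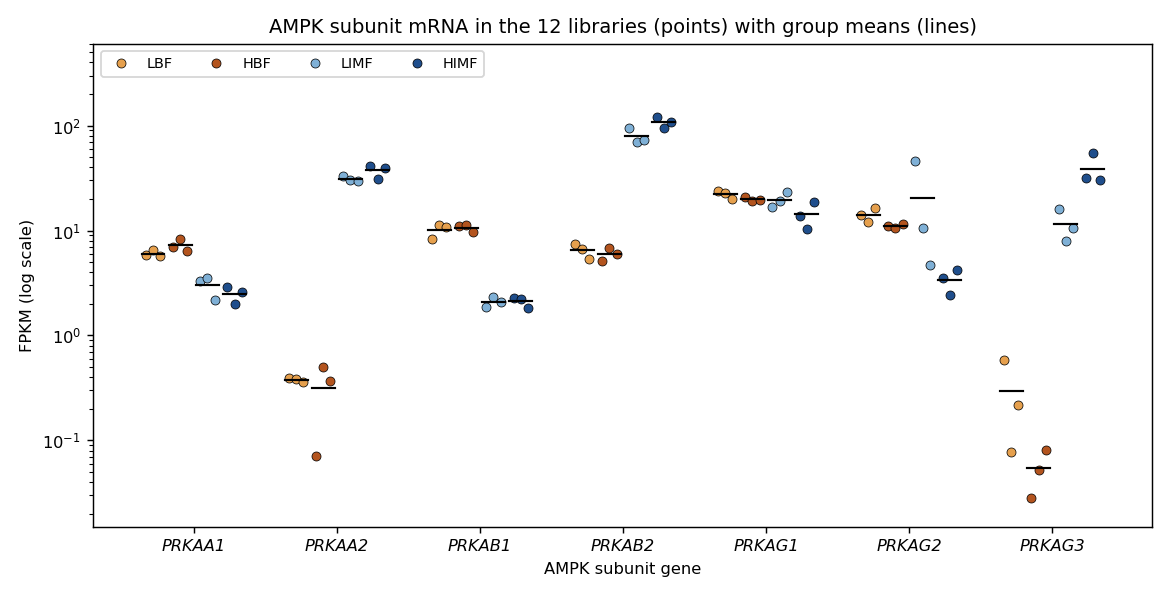
FPKM on a log axis of the 7 AMPK subunit genes in the 12 libraries (points, coloured by group), with a line at each group mean (n = 3). PRKAG3 in muscle lies between 7.88 and 54.4 FPKM and in fat between 0.0285 and 0.585 FPKM, and PRKAG2 in LIMF runs from 4.72 to 45.6 FPKM.

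The muscle against fat comparison was read with 1 reservation. Called genes were those with an adjusted p under 0.05 whose log2 fold change was 1 or more in size, and 9262 of the 15965 tested met this (58%), 9.67% higher and 48.3% lower in muscle. After median-of-ratios scaling 3497 genes were called higher and 4372 lower, and after quantile normalization 3257 and 3845, against 1544 and 7718 as deposited. Over all genes the log2 fold change had a median of -0.97 as deposited. After median-of-ratios scaling that median was -0.16 and after quantile normalization -0.10. PRKAG3 was higher in muscle under each of them, by 7.24 and 7.07 on the log2 scale. The direction of PRKAG2 was not fixed, at 0.13 and -0.17, and neither of these values passed the test.

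The partners with which PRKAG2 and PRKAG3 are assembled were compared between the tissues too. Of the 7 subunit genes 5 were called, PRKAG3 among them, beside 58% of all genes. In muscle 3 were higher and 2 lower, where 9.67% and 48.3% of all genes were. PRKAA2 was 99.01-fold higher in muscle by mean (29.6 to 41.4 FPKM against 0.0713 to 0.499 FPKM), a log2 difference of 6.35 (SE 0.26, limma adjusted p = 1.2e-09). PRKAB2 was 15.0-fold higher (70.5 to 121 FPKM against 5.17 to 7.47 FPKM), with a log2 difference of 3.87 (SE 0.13, limma adjusted p = 2.9e-10). PRKAB1 was lower in muscle, at 1.83 to 2.35 FPKM against 8.22 to 11.3 FPKM in fat, by -2.25 on the log2 scale (limma adjusted p = 1.4e-08). PRKAA1 was lower at 2.001 to 3.55 FPKM against 5.74 to 8.29 FPKM, by -1.25 on the log2 scale (limma adjusted p = 1.1e-05), but was not called after median-of-ratios (-0.23) or quantile (-0.25) scaling. PRKAG1 differed little, with 10.4 to 23.1 FPKM in muscle and 19.0 to 23.6 FPKM in fat, and its log2 difference of -0.34 turned to 0.70 and 0.12 under these scalings. PRKAA2 made up 89.5 to 93.9% of the summed alpha FPKM in muscle, and PRKAB2 96.8 to 98.3% of the summed beta FPKM. In fat PRKAA1 made up 93.7 to 98.995% of the alpha sum and PRKAB1 52.4 to 67.9% of the beta sum.

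Within LD muscle the log2 fold changes of PRKAG3 and PRKAG2 had opposite signs, and neither passed the test. PRKAG3 was higher in all 3 HIMF libraries than in all 3 LIMF libraries, with means of 38.9 ± 13.5 and 11.5 ± 4.18 FPKM (SD, n = 3), a 3.38-fold ratio. Its log2 fold change was 1.76 (SE 0.33, 95% interval 0.996 to 2.52), but across all genes the limma adjusted p was 0.40, so PRKAG3 was not called. PRKAG2 was lower in all 3 HIMF libraries, with means of 3.39 ± 0.90 and 20.3 ± 22.1 FPKM (SD, n = 3), and its log2 fold change was -1.96 (SE 0.72, 95% interval -3.62 to -0.30, limma adjusted p = 0.65). The groups came close to each other in PRKAG2, since LIMF3 with 4.72 FPKM lay just above HIMF3 with 4.23 FPKM, and LIMF1 with 45.6 FPKM set most of the mean of LIMF. Without LIMF1 the log2 fold change was -1.07 (limma adjusted p = 0.79). Leaving out any 1 muscle library kept PRKAG3 between 1.49 and 2.03 and PRKAG2 between -2.69 and -1.07.

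With a limit of 0.01 on the adjusted p and of 1 on the size of the log2 fold change, the test called 0 of 14292 genes in muscle (0%). At an unadjusted p under 0.05 limma had 1004 genes (7.02%), PRKAG2 and PRKAG3 among them. Groups that did not overlap were common, at 12.7% of all genes, 7.93% with HIMF above LIMF and 4.74% with HIMF below. PRKAG3 ranked 26th by p and had the 77th most positive fold change of the 14292 genes, and PRKAG2 had the 59th most negative. An exact two-sided permutation test gave 0.1 for each of the genes, the smallest p that 3 libraries against 3 allow. In whole tissue, fewer cells of a type and less RNA per cell cannot be told apart.

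**Figure D2:**
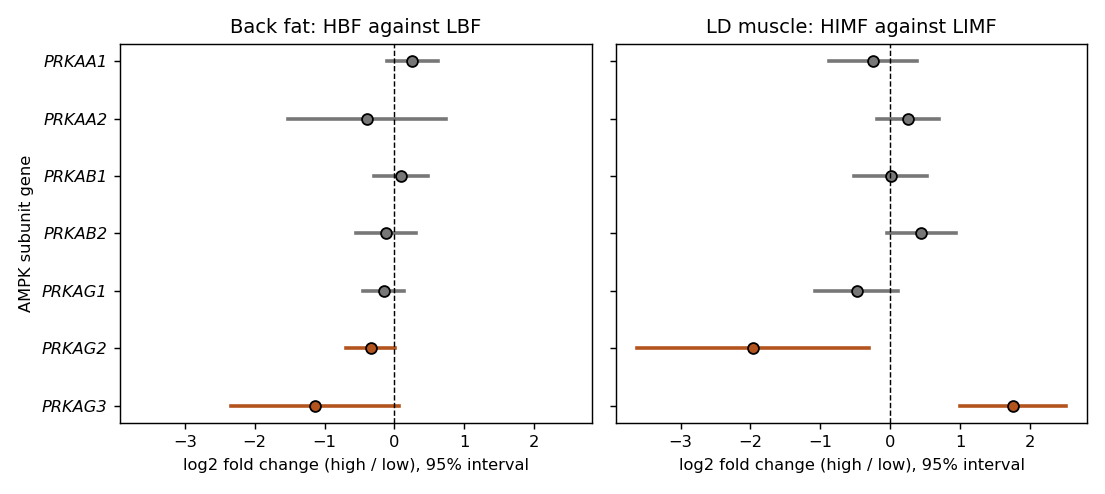
log2 fold change (high over low group) with its 95% interval from limma for the 7 AMPK subunit genes, in back fat (left) and LD muscle (right), with PRKAG2 and PRKAG3 in orange and a dashed line at 0. In muscle PRKAG3 lies at 1.76 and PRKAG2 at -1.96, and in fat PRKAG3 lies at -1.14 and PRKAG2 at -0.34.

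None of the other subunits had a muscle interval that left out 0. PRKAB2, the beta subunit of most muscle complexes, was higher without overlap in HIMF (94.2 to 121 FPKM) than in LIMF (70.5 to 94.1 FPKM), with a log2 fold change of 0.45 (SE 0.21, limma adjusted p = 0.73), although LIMF1 and HIMF2 were separated by only 94.1 against 94.2 FPKM. PRKAA2 was at 0.26, PRKAA1 at -0.24, PRKAG1 at -0.48 and PRKAB1 at 0.01 on the same log2 fold change scale, all with overlapping groups. The sum of the 3 gamma subunits was 78.3, 37.5 and 38.4 FPKM in the LIMF libraries and 49.3, 67.3 and 53.2 FPKM in the HIMF libraries. The LIMF range surrounded that of HIMF through LIMF1 alone, and LIMF2 and LIMF3 lay below every HIMF library.

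In back fat both genes had lower mean levels in HBF, neither past the test. PRKAG2 was lower in all 3 HBF libraries, with means of 11.06 ± 0.42 against 14.2 ± 2.23 FPKM (SD, n = 3) and a log2 fold change of -0.34 (SE 0.15, 95% interval -0.70 to 0.01, limma adjusted p = 0.38). PRKAG3 averaged 0.0543 ± 0.0266 FPKM in HBF and 0.293 ± 0.262 FPKM in LBF (SD, n = 3), a 5.39-fold ratio at levels near the bottom of the scale. Its groups overlapped, since LBF2 with 0.0776 FPKM lay below HBF3 with 0.0817 FPKM. The log2 fold change of PRKAG3 was -1.14 (SE 0.51, 95% interval -2.34 to 0.06, limma adjusted p = 0.38), and it was -0.63 without LBF1, the library with 0.585 FPKM. With a pseudocount of 1 it was -0.28 and with a pseudocount of 0.01 it was -1.91. By limma 0 of 16239 genes (0%) were called in fat and 2206 (13.6%) had an unadjusted p under 0.05. Groups that did not overlap made up 20.4% of all genes, 6.46% with HBF below LBF. Exact two-sided permutation gave 0.1 for PRKAG2 and 0.2 for PRKAG3.

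Muscle RNA in the fat samples was checked because PRKAG3 is so much higher in muscle. For 31 fibre and muscle markers, the median level in a fat library as a percentage of the muscle mean was 0.561% in LBF3 and between 0.0199% and 0.0318% in the other 5. LBF3 alone held 107 FPKM of ACTA1 and 35.0 FPKM of TNNT3, fast troponin T. PRKAG3 stood at 0.855% of its muscle mean in LBF3, which is near that median. In LBF1 it stood at 2.32%, while the markers there had a median of 0.0283%, and 4 of the 31 markers were at or above the percentage of PRKAG3. In LBF2 and HBF PRKAG3 stood at 0.113 to 0.324%. Without LBF3 the log2 fold change of PRKAG3 in fat was -1.19. PRKAG2 in fat stood at 90.2 to 139% of its muscle mean. Of the 14 skeletal muscle markers tested in fat, all had negative log2 fold changes in HBF (median -1.41), with 3 lower without overlap (6.46% of all genes) and 2 at an unadjusted p under 0.05 (13.6% of all genes), and 0 were called. All 8 fast fibre markers tested were negative (median -1.83), 1 of them lower without overlap, and 6 of 8 slow fibre markers were negative (median -0.92), with 2 higher without overlap (13.9% of all genes), beside a median of 0.09 over all genes. The marker medians include LBF3 and were not recomputed without it. The summed fast markers stood at 137 FPKM in LBF3, 2.91 FPKM in LBF1 and 3.403 FPKM in LBF2. In HBF they stood at 2.73 to 3.65 FPKM, a range that takes in LBF1 and LBF2. The summed skeletal muscle markers stood at 141 FPKM in LBF3, 40.9 FPKM in LBF1 and 30.6 FPKM in LBF2. In HBF they were lower, at 21.1 to 26.02 FPKM. The part of muscle RNA in these fat values was not tested.

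The high-low change was then compared between the tissues. For PRKAG3 the log2 fold change of 1.76 in muscle against -1.14 in fat made a difference of 2.90 (SE 0.63, 95% interval 1.53 to 4.27). limma gave an adjusted p of 0.23 across all genes, and exact permutation of the labels within each tissue gave a two-sided p of 0.01 over 400 relabellings. PRKAG3 ranked 44th by p of 15965 genes, of which limma called 0 (0%) at an adjusted p under 0.05 and had 1628 (10.2%) at an unadjusted p under 0.05. For PRKAG2 the difference was -1.62 (SE 0.84, 95% interval -3.45 to 0.21, limma adjusted p = 0.54), and the exact two-sided permutation p was 0.255. PRKAG2 was thus lower in value in the fatter group of both tissues, while PRKAG3 pointed in opposite directions. PRKAB2 had a difference of 0.57 (SE 0.26, limma adjusted p = 0.48), with an exact two-sided permutation p of 0.06.

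The PRKAG3 to PRKAG2 ratio, taken within a library so that its scale cancels, joins the values of both genes. In muscle, where their fold changes have opposite signs, its log2 difference between groups adds up the sizes of both by construction. In fat, where both are negative, the PRKAG2 change offsets part of the PRKAG3 change. The LIMF libraries had ratios of 0.353, 0.750 and 2.24, and the HIMF libraries 9.15, 22.2 and 7.17. PRKAG2 was the more abundant of the pair in LIMF1 and LIMF2 and PRKAG3 in LIMF3 and all 3 HIMF libraries. In fat PRKAG2 exceeded PRKAG3 by 24.2- to 154-fold in LBF and 141- to 387-fold in HBF. The mean log2 ratio was -0.25 ± 1.34 in LIMF and 3.50 ± 0.86 in HIMF (SD, n = 3), a 13.5-fold difference between the geometric means, which was 8.74-fold without LIMF1 and 22.0-fold without LIMF3. In fat it was -6.04 ± 1.35 in LBF and -7.80 ± 0.74 in HBF (SD, n = 3), with LBF2 inside the range of HBF, and the 3.39-fold lower geometric mean of HBF was 2.06-fold lower without LBF1 and 5.19-fold lower without LBF2. Because the 2 genes were chosen with their changes known, the ratio is a description and was not tested.

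**Figure D3:**
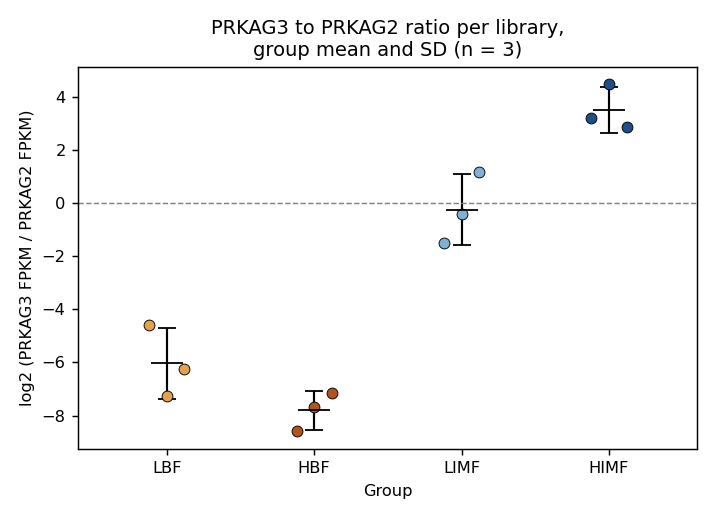
log2 of PRKAG3 FPKM over PRKAG2 FPKM in each of the 12 libraries (points) by group, with the group mean and SD (n = 3) and a dashed line where both genes are equal. The 3 HIMF libraries lie above the line, the LIMF libraries on both sides of it and the fat libraries far below it.

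Among the 3 gamma subunits, PRKAG3 made up 20.6%, 21.0% and 27.5% of the summed FPKM in LIMF and 64.8%, 80.9% and 57.0% in HIMF. PRKAG2 made up 58.2%, 28.0% and 12.3% in LIMF, but 7.09%, 3.64% and 7.95% in HIMF. PRKAG1 took the rest, 21.2 to 60.2% in LIMF and 15.5 to 35.1% in HIMF, so the leading gamma transcript was PRKAG2 in LIMF1, PRKAG1 in LIMF2 and LIMF3, and PRKAG3 in every HIMF library. The share of PRKAG3 in LIMF was steady from library to library although that of PRKAG2 was not. In fat PRKAG1 made up 54.5 to 65.4%, PRKAG2 34.4 to 44.9% and PRKAG3 0.0893 to 1.53%. The PRKAG3 share in fat averaged 0.780% in LBF and 0.176% in HBF, with overlapping ranges, and the LBF mean was 0.407% without LBF1.

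**Figure D4:**
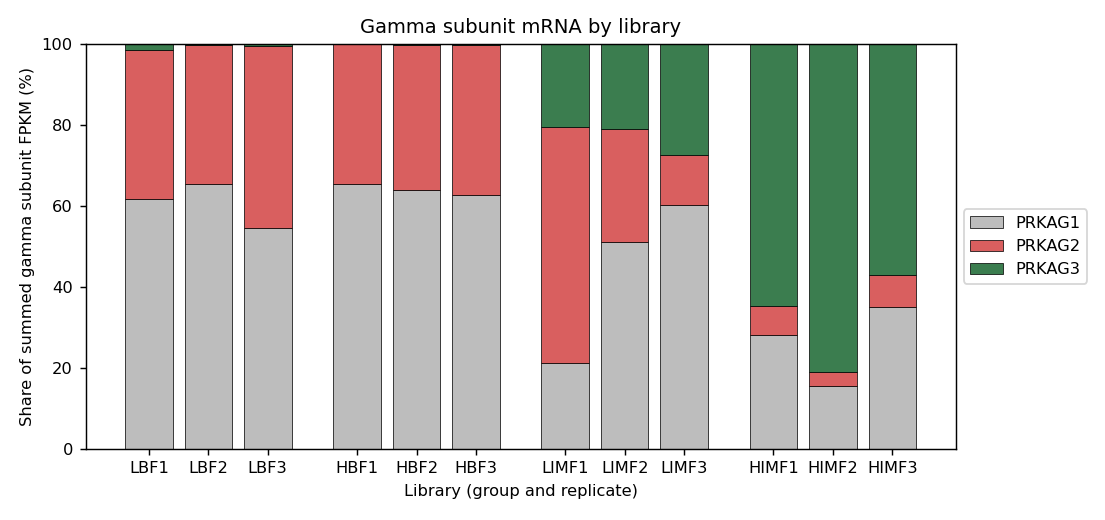
Share of each gamma subunit in the summed FPKM of PRKAG1, PRKAG2 and PRKAG3, as stacked bars from 0 to 100% for each of the 12 libraries. PRKAG3 takes 57.0 to 80.9% in HIMF, 20.6 to 27.5% in LIMF and at most 1.53% in fat.

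Markers of fibre type were set beside these values. Of 13 fast fibre markers 9 were matched to the table, and all 9 had positive log2 fold changes in HIMF (median 0.39, range 0.26 to 1.24), 3 without overlap (7.93% of all genes in that direction) and 0 at an unadjusted p under 0.05 (7.02% of all genes). All 8 of the matched slow fibre markers, out of 11, had negative log2 fold changes (median -0.78, range -1.16 to -0.42), none without overlap (4.74% of all genes in that direction) and 0 at an unadjusted p under 0.05, where the median over all genes was 0.04. The summed fast markers stood at 11468 to 16591 FPKM in LIMF and 14734 to 20477 FPKM in HIMF, and the summed slow markers at 4587 to 22598 FPKM and 3022 to 8292 FPKM. Slow markers made up 37.3%, 24.9% and 66.3% of the sum of both in LIMF and 21.8%, 13.0% and 36.0% in HIMF, with LIMF3 the slowest library and HIMF2 the fastest. HIMF2 was also the library with the most PRKAG3, but LIMF3 had more PRKAG3 than LIMF2. Per 1000 FPKM of summed fast markers, PRKAG3 had 0.970, 0.568 and 0.922 FPKM in the LIMF libraries and 1.56, 2.70 and 2.06 FPKM in the HIMF libraries. Without LIMF3 the log2 fold change of PRKAG3 was 1.73.

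Markers of other cells were set beside the muscle values. ADIPOQ, an adipokine made by fat cells, had 4.27, 6.46 and 1.31 FPKM in the LIMF libraries and 21.8, 8.36 and 11.2 FPKM in the HIMF libraries, higher in HIMF without overlap. As a list, 7 of 10 adipocyte markers had positive log2 fold changes in muscle, 3 were higher and 1 lower without overlap (7.93% and 4.74% of all genes), 5 had an unadjusted p under 0.05, 4 of them higher and 1 lower (7.02% of all genes in either direction), and 0 were called. The one that was lower without overlap was LPL, lipoprotein lipase, which both fat and muscle make, with 85.1, 76.3 and 136 FPKM in the LIMF libraries and 40.4, 21.6 and 67.0 FPKM in the HIMF libraries. The summed adipocyte markers were lower in HIMF without overlap, at 98.8 to 149 FPKM beside 154 to 207 FPKM in LIMF. LPL was the largest term of that sum in every LIMF library, so the sum is not a result separate from LPL. PLIN1 and LEP were higher in HIMF without overlap, as ADIPOQ was. PLIN1 had 0.343 to 1.70 FPKM in LIMF and 2.71 to 4.90 FPKM in HIMF. LEP had 0.0310 to 0.0992 FPKM in LIMF and 0.348 to 0.453 FPKM in HIMF. The markers' median level in muscle was at most 0.925% of that in fat. PRKAG3 at 0.173 FPKM on average in fat was lower than in any muscle library, and PRKAG2 averaged 12.6 FPKM in fat. Endothelial markers summed to 23.3 to 40.1 FPKM in LIMF and 22.1 to 38.6 FPKM in HIMF, fibroblast markers to 112 to 151 and 65.1 to 175 FPKM, and leukocyte markers to 6.83 to 11.3 and 3.34 to 10.9 FPKM, all with overlapping ranges. The part of fibre type and of these cells in the PRKAG2 and PRKAG3 values was not tested.

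The rest of the AMPK pathway was read from lists of its known regulators and targets. Upstream kinases and binding partners numbered 11, all tested, and 0 were called in muscle. Their median log2 fold change was 0.04, beside 0.04 over all genes, with 7 positive and 4 negative, and 1 was higher and 1 lower in HIMF without overlap (7.93% and 4.74% of all genes). CAMKK1, a calcium-activated kinase that can phosphorylate AMPK, had 1.16, 0.412 and 1.07 FPKM in the LIMF libraries and 1.89, 3.38 and 1.97 FPKM in the HIMF libraries. It was higher in HIMF without overlap, with a log2 fold change of 1.42 (SE 0.41, limma adjusted p = 0.55). FNIP2, a folliculin partner, had 1.42, 0.907 and 0.921 FPKM in the LIMF libraries and 0.843, 0.690 and 0.564 FPKM in the HIMF libraries, lower without overlap, with a log2 fold change of -0.55 (SE 0.29, limma adjusted p = 0.74). STRADA and CAB39, which hold the kinase STK11 in its active complex, had log2 fold changes of 0.41 and -0.29, and FNIP1, which like FNIP2 binds AMPK, of -0.28. In fat 10 of the 11 were positive and 0 were called, with a median of 0.17 beside 0.09 over all genes, both as deposited. Median-of-ratios scaling brought the median over all genes to 0.00312, and the list median under that scaling was not computed. Log2 fold changes in fat included CAB39L at 0.49, FNIP2 at 0.32, STRADA at 0.27 and CAMKK2 at -0.30.

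Targets in lipid metabolism gave 8 testable genes of 10, of which 0 were called in muscle, 1 was higher and 2 lower in HIMF without overlap (7.93% and 4.74% of all genes), and the median log2 fold change was -0.47. SREBF1, a lipogenic transcription factor that AMPK restrains, had 3.08, 3.08 and 5.55 FPKM in the LIMF libraries and 8.10, 14.8 and 6.83 FPKM in the HIMF libraries, a log2 fold change of 1.30 (SE 0.36, limma adjusted p = 0.54). MLYCD, which removes the malonyl-CoA that blocks fatty acid entry into mitochondria, had 22.1, 13.1 and 17.6 FPKM in the LIMF libraries and 6.36, 4.63 and 11.5 FPKM in the HIMF libraries, a log2 fold change of -1.29 (SE 0.35, limma adjusted p = 0.54). LIPE, the hormone-sensitive lipase, was at -0.88 with overlap. In fat the same list had 0 called and none without overlap (20.4% of all genes), and its values were small, with CPT1B at 0.39, CPT1A at 0.34 and ACACA at -0.26.

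Glucose and glycogen metabolism held the widest values in muscle. Of 14 genes 0 were called, 4 were higher in HIMF without overlap and 0 lower (7.93% and 4.74% of all genes), and the median log2 fold change was -0.11. PFKFB3, which makes the activator of phosphofructokinase and is itself an AMPK substrate, had 1.51, 1.43 and 7.98 FPKM in the LIMF libraries and 68.4, 74.8 and 12.5 FPKM in the HIMF libraries, a log2 fold change of 3.89 (SE 0.84, limma adjusted p = 0.48). LIMF3 and HIMF3 were the nearest pair of the groups. TBC1D1, a Rab regulator through which AMPK releases glucose transporters to the surface, had 12.1, 36.3 and 3.42 FPKM in the LIMF libraries and 1.28, 1.14 and 3.92 FPKM in the HIMF libraries. Its log2 fold change was -2.61 (SE 0.81, limma adjusted p = 0.59), with LIMF3 inside the HIMF range. PHKG1, the catalytic subunit of muscle phosphorylase kinase and so a step in glycogen breakdown, had 21.5, 13.6 and 23.6 FPKM in the LIMF libraries and 37.8, 47.0 and 50.1 FPKM in the HIMF libraries, a log2 fold change of 1.23 (SE 0.25, limma adjusted p = 0.48). GBE1, the glycogen branching enzyme, was at -1.07 with overlap.

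In fat the same 14 genes had 0 called, with 2 higher and 2 lower in HBF without overlap (13.9% and 6.46% of all genes). GBE1 had 99.1, 53.0 and 62.6 FPKM in the LBF libraries and 38.0, 37.8 and 42.7 FPKM in the HBF libraries, a log2 fold change of -0.81 (SE 0.23, limma adjusted p = 0.27). PPP1R3C, which brings a phosphatase to glycogen, was at -0.56, hexokinase HK2 at 0.53 and TBC1D1 at 0.36. GBE1 was thus lower in value in the fatter group of both tissues, while TBC1D1 was not.

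Of 9 AMPK targets in growth and autophagy 0 were called in muscle, where EEF2K, a kinase that slows translation, was at 0.67, FOXO3 at -0.43, MTOR at -0.31 and the autophagy kinase ULK1 at 0.27 on the log2 fold change scale, ULK1 alone without overlap, higher in HIMF (7.93% of all genes). In fat FOXO3, a transcription factor of stress and atrophy genes, was at -0.63 (SE 0.21, limma adjusted p = 0.30). It was the 1 gene of 9 that was lower in HBF without overlap (6.46% of all genes). TFEB was at 0.31, RPTOR at 0.29 and ULK1 at -0.19.

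Targets in transcription and mitochondria had negative log2 fold changes in muscle for all 8 genes tested, with a median of -0.20 against 0.04 for all genes, and 0 were called. PPARGC1A, the coactivator that drives mitochondrial biogenesis and oxidative fibres, had 32.0, 7.06 and 6.61 FPKM in the LIMF libraries and 2.98, 5.42 and 5.69 FPKM in the HIMF libraries. It was lower in HIMF without overlap, with a log2 fold change of -1.32 (SE 0.59, limma adjusted p = 0.71), which was -0.59 without LIMF1, the same library that held the highest PRKAG2. Its partner ESRRA had 66.6, 94.1 and 67.6 FPKM in the LIMF libraries and 35.2, 36.3 and 61.3 FPKM in the HIMF libraries, a log2 fold change of -0.81 (SE 0.28, limma adjusted p = 0.62), also without overlap. These were 2 of the 8 genes, beside 4.74% of all genes that were lower without overlap. CRTC2 was at -0.42 and the deacetylase SIRT1 at -0.27. In fat CRTC2 was at 0.35 and SIRT1 at -0.24, 1 higher and 1 lower without overlap (13.9% and 6.46% of all genes), with CREB1 at 0.26 and ESRRA at 0.11, and 0 of 8 were called.

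Clock genes were included because AMPK is known to act on the clock through the cryptochromes. Of 16 testable genes of 18, 0 were called in muscle and 2 were higher in HIMF without overlap (7.93% of all genes). BHLHE40, a repressor of the clock, was at -1.12, DBP at 1.09 and PER2 at 0.97 on the log2 fold change scale, with DBP alone of these without overlap (0.754 to 2.75 FPKM in LIMF, 3.02 to 4.33 FPKM in HIMF). In fat CSNK1E, a kinase of the PER proteins, was at 0.76, BHLHE40 at 0.74 and PER2 at -0.59, and 0 of 16 were called. The times of day at which the samples were taken are not given in the sources used here.

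**Figure D5:**
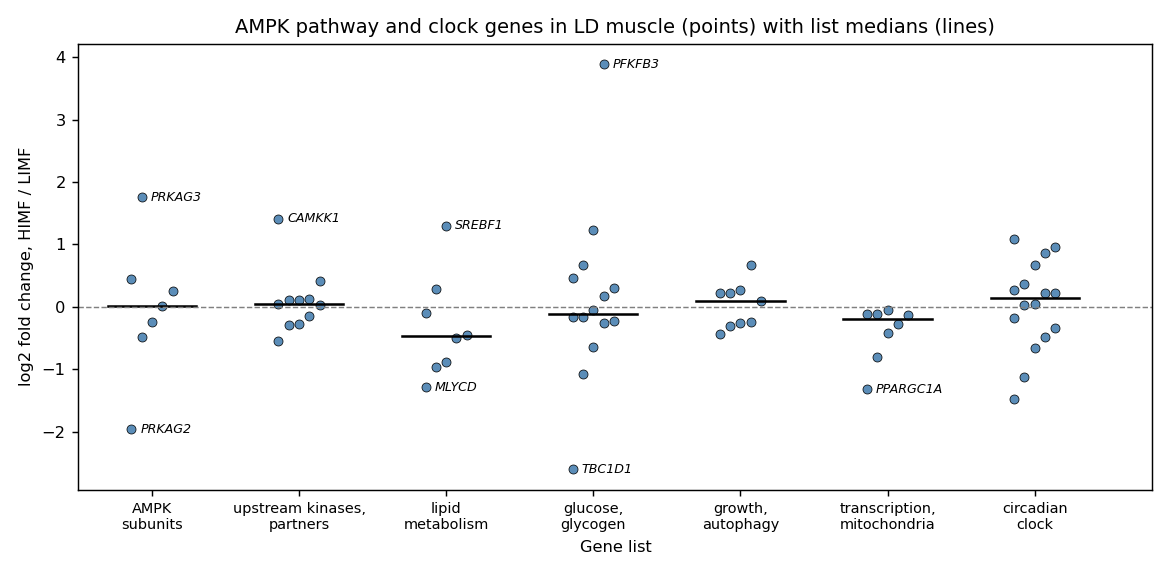
log2 fold change of HIMF over LIMF for the tested genes of the AMPK pathway and clock lists in LD muscle (points), with the median of each list (line) and the names of the outermost genes of the AMPK lists. PFKFB3 at 3.89 and TBC1D1 at -2.61 lie farther out than PRKAG3 at 1.76 and PRKAG2 at -1.96, and none of the genes passed the adjusted test.

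Genes whose pattern most resembled that of the gamma subunits were ranked by Pearson's r of log2(FPKM + 0.1) over the 6 muscle libraries among 8263 named genes with a mean above 1 FPKM. For PRKAG2 the highest were ANKRD33B (r = 0.997), FLNC, EIF3A, ZRANB1 and SMCR8 (r = 0.987), and the lowest SWSAP1 (r = -0.997), ENTPD4, DDX39B, CEP57L1 and MVB12A (r = -0.984). For PRKAG3 the highest were SNX6 (r = 0.997), TMEM160, CLK1, UBE2V2 and MEF2B (r = 0.983), and the lowest DESI1 (r = -0.993), SESTD1, PSMC2, ERN1 and VGLL2 (r = -0.978). FLNC is the filamin of striated muscle, and VGLL2 and MEF2B are transcriptional regulators known from muscle. Over the 6 fat libraries, among 10048 genes, PRKAG2 was nearest to RBBP7 (r = 0.990), ALDH18A1, RNF19A, CELSR2 and COX7A1 (r = 0.968) and most opposed to ATN1 (r = -0.996), CTNNA1, RTN4RL2, NOVA2 and GAB3 (r = -0.988). With 6 points that share libraries and depth, such values are a description only, and those of PRKAG2 in muscle include LIMF1.

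The genes next to the gamma subunits on the chromosome were also read. On the side of PRKAG3 towards lower coordinates, CYP27A1, a sterol hydroxylase 7.29 kb away, averaged 94.4 FPKM in LBF and 24.7 FPKM in HBF, with overlapping groups and a log2 fold change of -2.31 (SE 0.76, limma adjusted p = 0.30). In muscle its log2 fold change was 0.33. TTLL4, 67.7 kb away, was higher in HIMF without overlap, with a log2 fold change of 0.73 (SE 0.26, limma adjusted p = 0.64), and STK36 was at 0.39 with overlap. On the other side WNT6 was at 0.11, and WNT10A and FEV were too low to test. Around PRKAG2, GALNTL5 ends 0.113 kb from the gene and averaged 1.04 FPKM in LBF and 0.349 FPKM in HBF but at most 0.0157 FPKM in either muscle group. KMT2C was at 0.06, GALNT11 at 0.28 and RHEB at -0.30 in muscle, all with overlap, while in fat GALNT11 was at -0.42, lower in HBF without overlap, RHEB at 0.17, higher without overlap, and KMT2C at -0.07 with overlap. WDR86 was tested in fat alone, with a log2 fold change of 0.72 and overlapping groups, and CRYGN was too low to test in either tissue.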

How the data were processed

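Total RNA of 12 whole-tissue samples was sequenced. The authors trimmed the reads (fastp), mapped them with HISAT2 against Sscrofa11.1 and deposited FPKM values per Ensembl gene, computed with Cufflinks 2.2.1; no further scaling between libraries is stated. They compared groups with DESeq2 1.25.9. Counts per gene were not used here, so no counting error is given. The 31910 rows carried 31903 identifiers, and 7 identifiers on 2 rows were summed. Symbols came from RefSeq tables (15027 identifiers) and the study's gene tables (24 more).

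From the deposited FPKM, log2(FPKM + 0.1) was computed, and limma 3.58.1 under R 4.3.3 (lmFit, eBayes with trend) was run over genes with a mean above 0.05 FPKM in the libraries compared, with Benjamini-Hochberg adjustment over all of them. Limits for a call were an adjusted p under 0.01 (0.05 for muscle against fat and for the difference between tissues) and, except for that difference, a log2 fold change of 1 or more in size. Single genes were also tested by exact two-sided permutation, which cannot go below 0.1 with 3 against 3. The limma p-values set a group difference against the spread between these libraries, moderated across genes. The permutation p-values count relabellings of the libraries. Groups follow the labels. The limma code was tested on simulated data.

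The genes, lists and tests were chosen with earlier results of these data known. Named were all AMPK subunits, up to 4 members of each list with the largest absolute log2 fold change in a comparison at a mean above 1 FPKM, and the 5 nearest and 5 most opposed genes by r. The neighbouring genes, FNIP2 in muscle, ADIPOQ, PLIN1, LEP, LPL, ACTA1, CKM, TNNT3 and CASQ1 were named after their values were seen. A few genes that this rule picks are left out of the text. Symbols not matched were ACACB, CD36, ARNTL (BMAL1 was matched) and PER3, and in the marker lists MYH1, MYH2, MYH4, MYLPF, MYH7, CASQ2, MYOZ2, MB, TTN, RYR1, CIDEA, VWF, HBA and HBA1. Smooth muscle markers summed to 17.6 to 66.4 FPKM in LIMF and 22.3 to 42.8 FPKM in HIMF, satellite cell markers to 0.947 to 1.80 and 1.43 to 1.92 FPKM, Schwann cell markers to 8.66 to 21.8 and 9.49 to 13.1 FPKM, and red cell markers to 34.9 to 357 and 34.5 to 286 FPKM. Alternatives were a pseudocount of 1 or 0.01, no filter, a mean above 1 FPKM, median-of-ratios and quantile scaling, eBayes without trend, a block for the replicate number, 1 fit of all 12 libraries, and each library left out.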

Additional observations from a re-analysis of the deposited data

Results flagged for a closer look

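For PRKAG3 the high-low change was compared between the tissues. The log2 fold change was 1.76 in LD muscle and -1.14 in back fat, a difference of 2.90 with an exact two-sided permutation p of 0.01 over 400 relabellings within tissues, which drew attention to it. Across all 15965 genes the limma adjusted p of the difference was 0.23. PRKAG3 was already on the study's lists of changed genes from these libraries in both tissues, so the permutation p is not independent evidence. The fat levels behind it are between 0.0285 and 0.585 FPKM, and the difference was 1.95 with a pseudocount of 1 and 3.68 with a pseudocount of 0.01.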

How the results depend on the processing

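PRKAG2 and PRKAG3 kept their direction in fat, in muscle and in the difference between tissues under every alternative, and neither was called under any of them. In muscle PRKAG3 ranged from 1.68 to 1.76 (adjusted p 0.18 to 0.65) and PRKAG2 from -2.01 to -1.75 (adjusted p 0.26 to 0.81), library omissions aside. In muscle against fat PRKAG2 was 0.13 after median-of-ratios scaling and called at -1.35 without LIMF1 (range -1.35 to -0.54 over omissions), and PRKAG1 was 0.70 and 0.12 after median-of-ratios and quantile scaling. When 0.1 was added to each FPKM, the mean log2 ratio was -5.39 in LBF and -6.19 in HBF. These lie nearer to each other than the -6.04 and -7.80 without it, the added value being above the PRKAG3 levels of HBF. The counts of called genes were 0 to 2 in fat, 0 to 5 in muscle and 0 to 118 in the difference over library omissions, the 118 without LIMF3, with 1 gene in muscle when all 12 libraries shared a fit, and in the difference 1 with a pseudocount of 1, of 0.01 or no filter and 2 without the trend. Muscle against fat had 5914 called genes with a pseudocount of 1, against 9262. Small values changed sign: in fat ESRRA was -0.028 after quantile normalization, and PRKAB1 was -0.0070 and -0.036 after median-of-ratios and quantile scaling, in muscle -0.040 and -0.025, and in the difference 0.020 after quantile normalization. Over omissions ACACA (-0.61 to 0.095), ESRRA (-0.044 to 0.28), PRKAA2 (-0.75 to 0.15) and PRKAB1 (-0.052 to 0.17) changed sign in fat, CAB39 (-0.65 to 0.027), FOXO3 (-0.87 to 0.028) and PRKAB1 (-0.061 to 0.11) in muscle, and PRKAB1 (-0.16 to 0.062) in the difference. The causes were not tested. Of the genes with an unadjusted p below 0.05, the share higher in the fatter group was 68.9% in fat (49% and 47.2% after median-of-ratios and quantile scaling) and 64.1% in muscle (54.9% and 58.6%). Of all values recomputed, 1287 stayed on their side of the test or within 1 SD. Same-numbered libraries of the low and high groups did not deviate together (r between -0.0583 and 0.138). Between tissues LBF and LIMF had r of 0.129, 0.169 and 0.0478, each the highest for its libraries, a hint from the data and not from the design, while HBF and HIMF had -0.0606, -0.0733 and -0.0533. The study gives different mean backfat and weight for LBF and LIMF, so these groups were not the same set of pigs throughout. Not every pair exceeded 0.1, so the numbers were not taken to pair the libraries. With the replicate number as a block within each tissue 0 genes were called in fat, muscle and the difference, and the adjusted p was 0.56 for PRKAG3 and 0.71 for PRKAG2 in muscle, 0.39 and 0.52 in the difference, and 2.2e-06 and 0.064 in muscle against fat. Fragments per gene were not used, so no counting error is given for the low PRKAG3 values in fat. Leaving out 1 library moved 18 of the 31 named values in muscle and 20 of 31 in fat by over 1.5 times, among them EEF2K (0.29 to 1.24), GBE1 (-1.62 to -0.60), LIPE (-1.19 to -0.50) and DBP (0.60 to 1.47) in muscle.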
